A study of Mus musculus with 4 samples.

Results

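The genes described here encode the surrogate light chain of mouse B-cell precursors, Igll1 (lambda5), Vpreb1 and Vpreb2, together with their relative Vpreb3. They were found by symbol, and all 4 members were among the 32285 genes of the count tables. Their UMIs (unique molecular identifiers, 1 for each captured transcript molecule) were read in 4 single-cell libraries of mouse bone marrow. The marrow was taken 10 weeks after transplantation and sorted for CD45.2, a surface antigen that tells donor from host blood cells. Of these, 3 hold Kit+ cells, from control marrow, from Mll3/4 deleted marrow and from Mll3/4SI marrow, and the remaining library holds B220lo cells from control marrow. Each group is 1 library. Kit is the receptor for stem cell factor, and B220 is a form of CD45 on B-lineage cells. MLL3 and MLL4 are histone methyltransferases, and the labels do not expand SI. The number of mice in a library, how the deletion was made and what the control cells carried are not given in the sources used here.

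A developing B cell rearranges its heavy chain gene before its light chain genes. Until a light chain exists, VpreB and lambda5 pair with the new heavy chain and form the pre-B cell receptor, with CD79a and CD79b as its signalling chains. Signalling from that receptor drives pre-B cells to divide and is followed by loss of surrogate light chain transcription. VpreB3 resembles VpreB but is not part of that receptor on the surface. It binds newly made heavy and light chains inside the cell, and it is known to be expressed past the pre-B stage.

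After filtering, 11051 control Kit+, 13747 deleted, 11501 SI and 15380 control B220lo cells were kept, with medians of 11594, 6507, 11969 and 3246 UMIs per cell. Pairs of libraries shared 178 to 292 cell barcodes. Y-linked transcripts, summed over 4 genes, reached 148 CPM in the deleted library against 0.0143 to 0.570 CPM elsewhere, so sex and genotype cannot be told apart. Kmt2c and Kmt2d, the genes of MLL3 and MLL4, stood at 51.8 and 20.1 CPM after deletion and at 58.1 and 24.0 CPM in control Kit+ cells. Tags from the 5′ end may lie outside the deleted part, so these counts do not check the label. CPM is the count of a gene scaled to 1000000 UMIs over the cells summed. Cells were called B-marker cells when at least 3 of 8 B-lineage markers had a UMI, and more of them than of any of the other marker lists. The markers, among them Cd79a, Ebf1 and Pax5, do not include the surrogate light chain genes. Such cells numbered 48 (control Kit+), 12746 (deleted), 23 (SI) and 12646 (control B220lo). Cells with just 3 of the markers numbered 6, 182, 1 and 745, and cells with 2 numbered 173, 238, 244 and 808, in the same order. Cells were also sorted by the antigen receptor contigs assembled for them: none, a heavy chain (IGH) only, or IGH with a kappa or lambda light chain. With 1 library per group no difference could be tested. All intervals are 95% intervals for counting error only, and they do not cover differences between mice or sorts. Those of levels and ratios also leave out the spread between cells.

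Vpreb1 and Vpreb2 are near-copies, so their sequences decide whether their reads can be told apart. In the GRCm38 annotation Igll1 (ENSMUSG00000075370) lies on chromosome 16 from 16860671 to 16863985, and Vpreb1 (ENSMUSG00000059305) from 16868403 to 16870843, both on the minus strand and 4418 bases apart. Vpreb2 (ENSMUSG00000059280) lies on the plus strand of the same chromosome, from 17980428 to 17981273. Vpreb3 (ENSMUSG00000000903) is on chromosome 10, from 75943057 to 75949657 on the plus strand. The coding sequences of Vpreb1 and Vpreb2 both have 426 bases in 2 exons and differ at 9 of them. Counted from the A of the start codon, with the Vpreb1 base first, the differences are T37C, T39C, T83C, A280G, T345C, C348T, G366C, G378A and G387A. The first 120 coding bases hold 3 of them and bases 265 to 426 the other 6, shown in capitals in both genes (GENCODE M21 transcripts, 5′ to 3′).
Vpreb1, coding bases 1 to 120: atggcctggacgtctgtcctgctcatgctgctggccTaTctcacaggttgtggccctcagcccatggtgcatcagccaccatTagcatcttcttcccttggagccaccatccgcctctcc
Vpreb2, coding bases 1 to 120: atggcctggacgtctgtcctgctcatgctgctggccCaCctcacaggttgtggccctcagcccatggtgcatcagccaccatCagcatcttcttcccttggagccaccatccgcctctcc
Vpreb1, coding bases 265 to 426: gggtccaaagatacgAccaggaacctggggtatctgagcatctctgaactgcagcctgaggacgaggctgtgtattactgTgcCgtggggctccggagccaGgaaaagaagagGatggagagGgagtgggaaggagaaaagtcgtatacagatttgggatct
Vpreb2, coding bases 265 to 426: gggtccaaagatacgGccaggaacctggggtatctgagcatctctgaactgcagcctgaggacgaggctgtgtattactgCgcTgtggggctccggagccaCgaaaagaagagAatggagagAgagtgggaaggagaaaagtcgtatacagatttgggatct

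Over the whole aligned transcripts, 20 of 759 bases differed, an identity of 97.4%. A 5′ kit tags the 5′ end of the transcript, and where the reads lay along these genes was not read. Of the 200 windows of 90 bases that start in the first 200 bases of Vpreb1, 0 occurred unchanged in Vpreb2. Over the whole Vpreb1 transcript 107 of 677 windows did, or 15.8%. A window of 90 bases was chosen here, since the read length is not given in the sources used here. The 2 genes are also alike around the start of the coding transcript. The 113 bases before the annotated start of Vpreb2 and the matching stretch at Vpreb1 (RefSeq, GRCm38) differed at 2 bases, in capitals. The Vpreb1 stretch lies inside the annotated gene, and its last bases lie inside the coding transcript, which starts at 16869255.
Vpreb1, chr16:16869249-16869361, minus strand: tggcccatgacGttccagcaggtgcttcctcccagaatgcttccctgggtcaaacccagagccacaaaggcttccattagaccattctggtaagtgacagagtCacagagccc
Vpreb2, chr16:17980315-17980427, plus strand: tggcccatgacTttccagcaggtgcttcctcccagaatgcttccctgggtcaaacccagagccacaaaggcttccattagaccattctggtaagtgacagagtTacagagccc

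The libraries were compared first over all their cells. In the order control Kit+, deleted, SI and control B220lo, Igll1, which encodes the lambda5 chain, stood at 3.56 CPM (3.26 to 3.89), 2390 CPM (2381 to 2399), 1.13 CPM (0.963 to 1.31) and 429 CPM (424 to 434). Vpreb1 stood at 3.37, 2482, 2.23 and 316 CPM in the same order. Both genes were thus highest in the deleted library and lowest in the SI library. Vpreb3 stood at 2.97 CPM (2.70 to 3.28), 1533 CPM (1526 to 1541), 0.835 CPM (0.695 to 0.994) and 1660 CPM (1651 to 1669), and was highest in the control B220lo library. Vpreb2 stood at 0.215 CPM (0.145 to 0.307), 0.359 CPM (0.257 to 0.489), 0.325 CPM (0.240 to 0.429) and 39.6 CPM (38.2 to 41.0). Vpreb2 was thus under 1 CPM in all 3 Kit+ libraries, including the deleted library in which its near-copy Vpreb1 was highest.

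**Figure D1:**
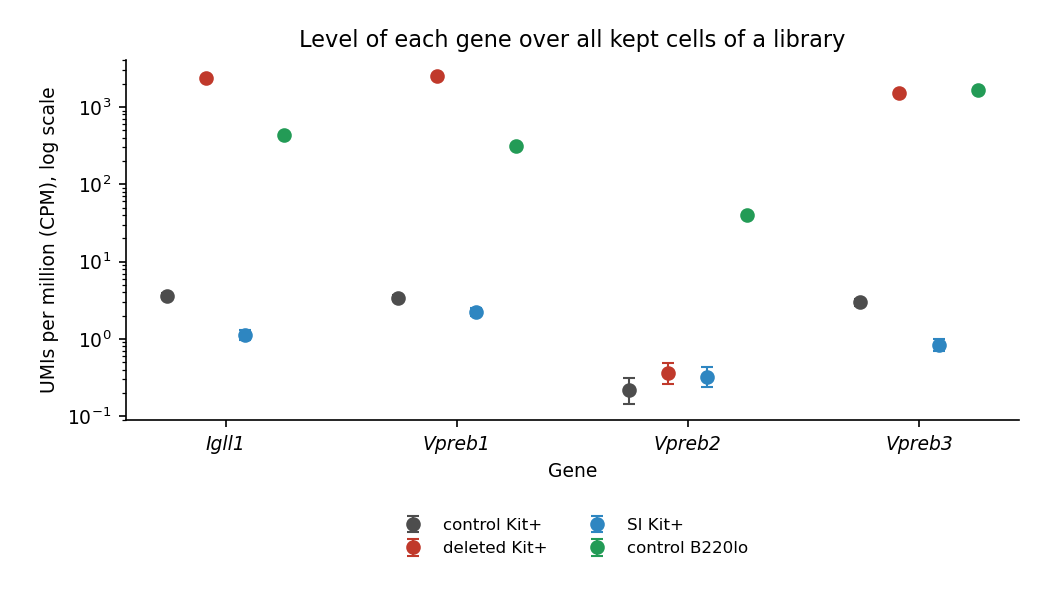
Level of each gene over all kept cells, in CPM on a log axis, with 1 point per library and bars for the 95% Poisson interval. Igll1, Vpreb1 and Vpreb3 lie above 1000 CPM in the deleted library, where Vpreb2 lies at 0.359 CPM.

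Between the deleted and the control Kit+ library the CPM ratio was 671 (614 to 734) for Igll1, 737 (673 to 808) for Vpreb1 and 516 (468 to 569) for Vpreb3. On the log2 scale with 1 CPM added, which understates the change of low genes, these are 9.03, 9.15 and 8.59. Among genes with at least 100 UMIs in the higher library, 23.8% lay past 2-fold in this comparison. For Vpreb2 the ratio was 1.67 (1.02 to 2.78), on 40 and 30 UMIs, and it was under that minimum. Between the SI and the control Kit+ library the ratio was 0.316 (0.264 to 0.377) for Igll1, 0.661 (0.573 to 0.762) for Vpreb1 and 0.281 (0.228 to 0.343) for Vpreb3. Here 3.28% of genes lay past 2-fold, and Igll1 and Vpreb3 were among the lower ones. Both fell within 2-fold with 10 CPM added, at log2 ratios of -0.29 and -0.26. Vpreb2 had 49 UMIs in the SI library, and its ratio was 1.51 (0.939 to 2.46).

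B-marker cells made up 0.434%, 92.7%, 0.200% and 82.2% of the kept cells in the same order of libraries, so a library's level also reflects how many such cells it held. In the deleted library 99% of Igll1, 99.0% of Vpreb1 and 98.8% of Vpreb3 UMIs lay in B-marker cells, and in the control B220lo library 98.4%, 98.2% and 98.8% did. In the control Kit+ library, B-marker cells held 371 of 497 Igll1, 237 of 470 Vpreb1, 28 of 30 Vpreb2 and 387 of 415 Vpreb3 UMIs. In the SI library they held 134 of 170, 94 of 336, 37 of 49 and 91 of 126. Outside B-marker cells, granulocyte-marker cells of the deleted library had 26.4 CPM (22.5 to 30.7) of Igll1, 26.7 CPM (22.8 to 31.0) of Vpreb1 and 15.4 CPM (12.5 to 18.8) of Vpreb3. Control Kit+ granulocyte-marker cells had 1.03 CPM (0.783 to 1.33), 1.83 CPM (103 UMIs) and 0.124 CPM (0.0501 to 0.257). The levels outside the B lineage were higher in the library with more B-marker cells, and the part of free RNA in this was not tested. Early lymphoid-marker cells of the deleted library, 26 in number, had 1314 CPM (1126 to 1525) of Igll1 and 1603 CPM (1394 to 1834) of Vpreb1. In the control Kit+ library 43 early lymphoid-marker cells had 0 UMIs of each of the 4 genes, which allows up to 7.68 CPM. Median depths of these cells were 2449 UMIs in the deleted and 8311 UMIs in the control library. The markers of this class include Dntt, Il7r and Ighm, which stood at 1296, 406 and 323 CPM in deleted B-marker cells with no contig. Whether the 26 cells were B-lineage cells of low depth was not tested.

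B-marker cells with no contig were compared next across the Kit+ libraries, which share 1 sort gate. This is the state that held most deleted B-marker cells and all surrogate light chain UMIs of the control and SI B-marker cells. Control, deleted and SI libraries held 20, 9772 and 6 such cells, with medians of 6132, 6347 and 10910.5 UMIs per cell. Kit stood at 161, 371 and 319 CPM, and 35%, 83.5% and 100% of the cells had a Kit UMI. The cells compared thus differed in Kit transcripts despite the shared gate. Igll1 stood at 2723 CPM (2453 to 3014) for the control, 2737 CPM (2725 to 2749) for the deleted and 2033 CPM (1703 to 2408) for the SI cells. The deleted to control ratio was 1.01 (0.908 to 1.12), an interval that leaves out the spread between the 20 control cells. The lower and upper quartiles of those cells were 1193 and 5297 CPM of Igll1. The median cell had 3271, 2710 and 1731 CPM of Igll1, and 3, 108 and 1 cells were at 0. Vpreb1 stood at 1739 CPM (1525 to 1975), 2828 CPM (2816 to 2840) and 1426 CPM (1153 to 1745), a deleted to control ratio of 1.63 (1.43 to 1.85). Vpreb3 stood at 2451 CPM (2195 to 2729), 1733 CPM (1724 to 1743) and 880 CPM (668 to 1138), a ratio of 0.707 (0.635 to 0.790) for the deleted cells. The SI to control ratios were 0.747 (0.608 to 0.912) for Igll1, 0.820 (0.639 to 1.05) for Vpreb1 and 0.359 (0.267 to 0.476) for Vpreb3, on 6 cells of unequal levels. Cells with cycle transcripts (at least 3 of 10 cycle genes) made up 70% of the control, 37.1% of the deleted and 100% of the SI cells. In the control Igll1 stood at 4014 CPM (3597 to 4465) in the 14 cells with and 634 CPM (436 to 890) in the 6 cells without cycle transcripts. Deleted cells had 2655 CPM (2639 to 2671) with and 2833 CPM (2815 to 2851) without them. The pooled ratio near 1 thus joins a lower deleted level in cells with and a higher one in cells without cycle transcripts. The control level without them rests on 33 UMIs in 3 of the 6 cells, while all 14 control cells with them had an Igll1 UMI. Vpreb1 in cells with them stood at 2482 CPM (2157 to 2842) in the control and 2435 CPM (2420 to 2451) in the deleted library. In cells without them it stood at 538 CPM (357 to 778) and 3292 CPM (3273 to 3312), so its pooled difference lay there. That control level comes from 28 UMIs in 3 of the 6 cells. Vpreb3 in cells with them stood at 3468 CPM (3081 to 3889) and 1214 CPM (1203 to 1224). In cells without them it stood at 807 CPM (582 to 1091) and 2347 CPM (2331 to 2363), so its direction turned between the 2 kinds of cell. Its 42 control UMIs in cells without cycle transcripts also lay in 3 of the 6 cells. All 371 Igll1 and 237 Vpreb1 UMIs of control Kit+ B-marker cells came from these 20 cells. The 26 control Kit+ B-marker cells with IGH and a light chain had 0 UMIs of Igll1, Vpreb1 and Vpreb2, and 541 CPM (404 to 709) of Vpreb3. The 15 SI cells of that state also had 0 UMIs of the 3 genes, with 318 CPM (202 to 477) of Vpreb3, while the 19 deleted cells of that state had 1759 CPM (1535 to 2007) of Igll1, of which 9 cells held 99.1% of the UMIs.

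The member that set the deleted library apart was Vpreb2. Among no-contig B-marker cells, the control cells had 205 CPM (137 to 297), the deleted cells 0.391 CPM (0.262 to 0.561) and the SI cells 561 CPM (395 to 774). It was 526-fold lower (301 to 916) in the deleted than in the control cells. Strain and donor of each library are not given in the sources used here, so their part in this difference and that of genotype cannot be told apart. The SI value rests on 37 UMIs, with per-cell levels from 0 to 1844 CPM, and 2 of the 6 cells held 91.9% of them. The deleted library held 40 Vpreb2 UMIs in all, against 276239 of Vpreb1. They lay in 40 cells with 1 UMI each, and all 40 cells were B-marker cells that also had Vpreb1. Over all deposited barcodes, before any filter, there were 47 Vpreb2 and 320730 Vpreb1 UMIs. Vpreb2 UMIs per 100 Vpreb1 UMIs numbered 11.8 (7.69 to 17.5) in control Kit+, 39.4 (26.2 to 58.2) in SI and 12.4 (11.9 to 12.9) in control B220lo B-marker cells. In the deleted B-marker cells there were 0.0146 (0.0105 to 0.0199), or 1 for every 6834 (5018 to 9566) of Vpreb1. Both genes were compared here with each other within a library, and they have equal coding lengths. As the sequences above show, windows of 90 bases that start in the first 200 bases differ between the genes, but a share further along does not. Where the reads lay, and how the authors' counting treated shared stretches, was not tested. Among heavy chain clones of at least 20 deleted cells, 20 in number, the highest Vpreb2 level was 2.95 CPM, in a clone of 45 cells. All 20 clones together held 6 Vpreb2 UMIs, so the level of a single clone rests on very few UMIs. The protein-coding genes next to Vpreb2 that passed the minimum were Slc25a1, a mitochondrial citrate carrier, Dgcr6 and Prodh, a proline dehydrogenase. In B-marker cells with no contig they stood at 36.5, 28.0 and 1.79 CPM in the deleted and at 54.1, 41.8 and 10.0 CPM in the control B220lo library. Over all cells of the Kit+ libraries, which differ in their share of B-marker cells, they stood at 38.9, 30.1 and 8.11 CPM after deletion and at 67.5, 41.2 and 43.8 CPM in the control.

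**Figure D2:**
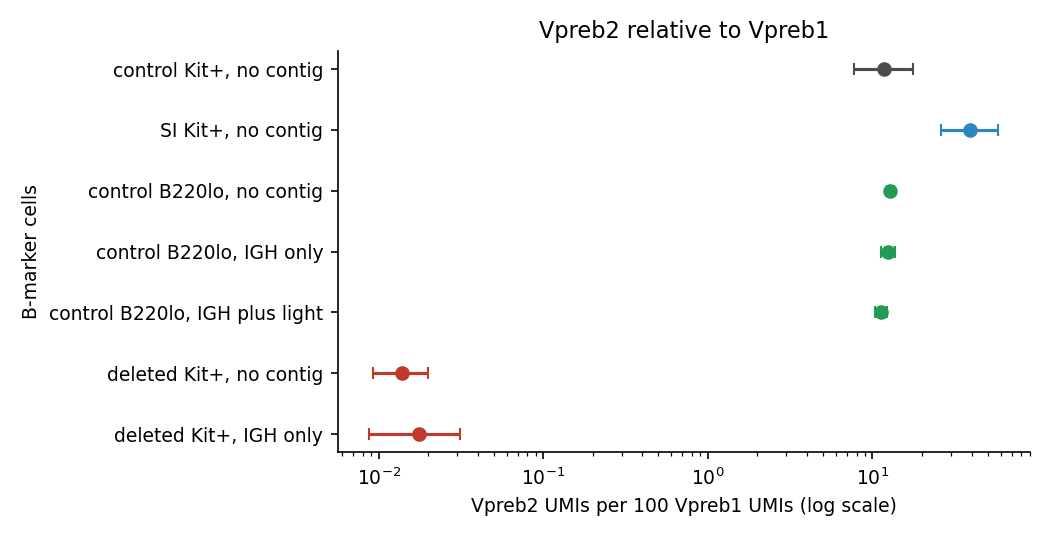
Vpreb2 UMIs per 100 Vpreb1 UMIs in B-marker cells by library and contig state, on a log axis, with 95% intervals for counting error. The control and SI sets lie between 11.3 and 39.4, and the sets of the deleted library at 0.0138 and 0.0175.

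The contig states were then followed within the control B220lo and the deleted library. In control B220lo B-marker cells with no contig (3733 cells), with IGH only (1723) and with IGH plus light chain (6606), Igll1 stood at 1027, 614 and 295 CPM. Vpreb1 stood at 848, 357 and 198 CPM, and Vpreb2 at 109, 44.3 and 22.3 CPM. These 3 genes were each lower from state to state, and the counting-error intervals of the states did not overlap. Vpreb3 stood at 2062, 2010 and 2235 CPM, and did not share the decline. Vpreb3 UMIs per 100 Igll1 UMIs went from 201 (197 to 205) to 327 (318 to 337) and 757 (740 to 774). The cells with a light chain contig but no IGH contig, 584 in number, had 459 CPM of Igll1 and 2734 CPM of Vpreb3. A missing contig need not mean a missing rearrangement, and how many contigs were missed was not tested. With no contig Ighm stood at 782 CPM, against 830 CPM with IGH only, at medians of 2645 and 3095 UMIs per cell.

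From no contig to IGH only in control B220lo cells the ratio was 0.598 (0.581 to 0.616) for Igll1, 0.421 (0.405 to 0.436) for Vpreb1 and 0.406 (0.365 to 0.450) for Vpreb2, and 4.34% of genes lay past 2-fold. The median gene lay at -0.12 on the log2 scale in this comparison, and with ratios centred on it Igll1 stood at -0.62. The Vpreb3 ratio was 0.975 (0.958 to 0.992), and its direction flipped to a log2 ratio of 0.081 with that centring and to 0.015 without ribosomal, mitochondrial and immunoglobulin genes in the total. From IGH only to IGH plus light chain the ratio was 0.481 (0.465 to 0.497) for Igll1, 0.554 (0.531 to 0.577) for Vpreb1, 0.504 (0.446 to 0.569) for Vpreb2 and 1.11 (1.09 to 1.13) for Vpreb3. Of all genes 5.56% lay past 2-fold there, and Igll1 was the member that did. These values pool cells with and without cycle transcripts, and the share with them was 24.8%, 37.4% and 16.3% over the 3 states. In cells without them Igll1 stood at 857, 159 and 110 CPM, Vpreb1 at 881, 151 and 104 CPM and Vpreb3 at 2700 CPM (2663 to 2736), 3193 CPM (3128 to 3258) and 2747 CPM (2724 to 2771). In cells with them Igll1 stood at 1190, 801 and 603 CPM, Vpreb1 at 817, 441 and 353 CPM and Vpreb3 at 1450 CPM (1425 to 1477), 1527 CPM (1499 to 1556) and 1384 CPM (1363 to 1406). Igll1 and Vpreb1 were lower from state to state within both kinds of cell, and the step to IGH only was the larger one in cells without cycle transcripts. From IGH only to IGH plus light chain Igll1 was within 2-fold in each kind. Vpreb3 was highest with IGH only in each kind, so its direction turned from the pooled one at both steps.

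In the deleted library the same states held 9772, 2942 and 19 B-marker cells. Igll1 stood at 2737 CPM, 2599 CPM (2578 to 2620) and 1759 CPM (1535 to 2007), and Vpreb1 at 2828, 2740 and 1719 CPM. Vpreb3 stood at 1733, 1727 and 1035 CPM. From no contig to IGH only the ratios were 0.950 (0.941 to 0.958) for Igll1, 0.969 (0.960 to 0.977) for Vpreb1 and 0.996 (0.985 to 1.01) for Vpreb3, a decline smaller than that in the control B220lo library for Igll1 and Vpreb1. In this comparison 0.366% of genes lay past 2-fold. The 19 cells with IGH and a light chain were not alike. The 9 cells without a Kit UMI had 80.4 CPM (9.73 to 290) of Igll1 at a median of 2371 UMIs per cell, and the 10 cells with a Kit UMI had 2173 CPM (1895 to 2481) at a median of 9680.

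**Figure D3:**
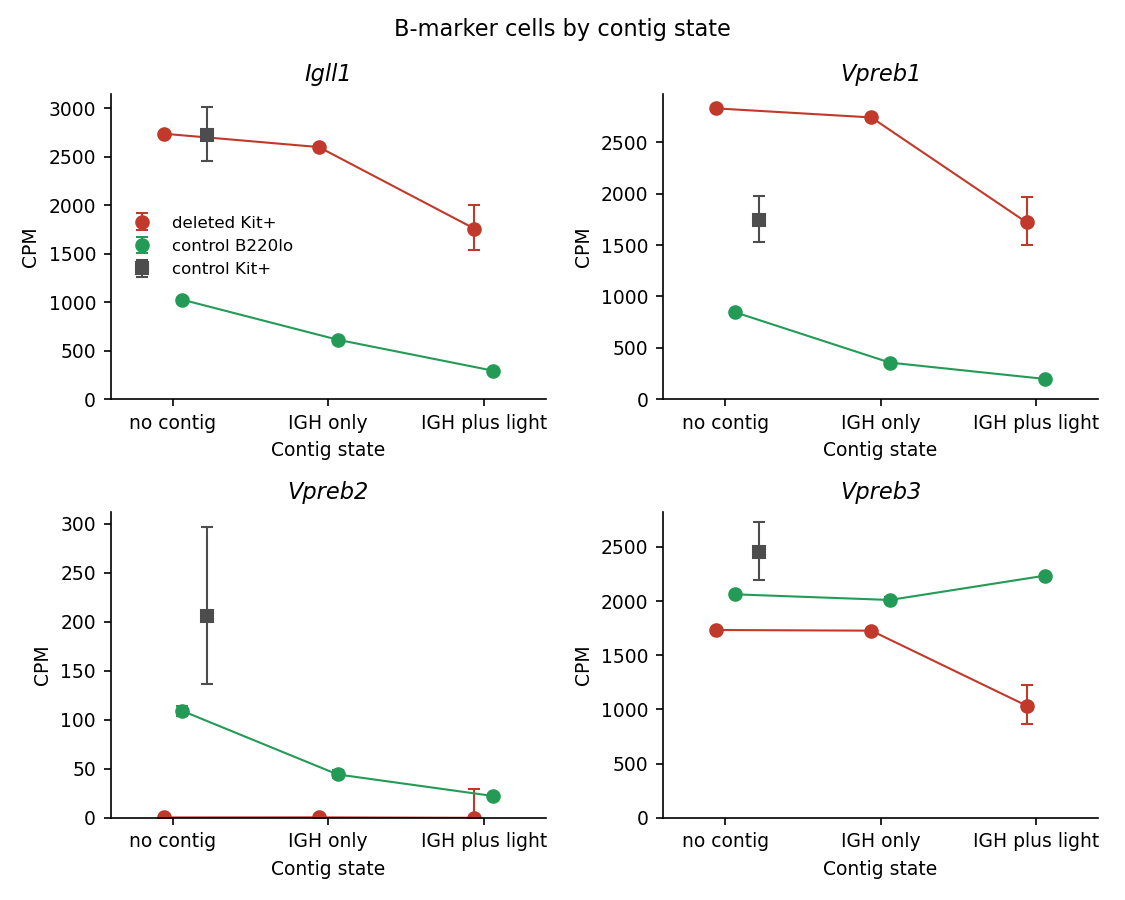
CPM of each gene in B-marker cells by contig state, for the deleted Kit+ and control B220lo libraries, with the no-contig cells of the control Kit+ library as squares and bars for 95% Poisson intervals. Igll1 goes from 1027 to 295 CPM over the states in the control B220lo library and from 2737 to 2599 CPM between the first states of the deleted library.

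Set against control B220lo cells of the same state, deleted B-marker cells with no contig had 2.67 times (2.62 to 2.71) the Igll1 and 3.33 times (3.28 to 3.39) the Vpreb1 level, and 24.4% of genes lay past 2-fold. With IGH only the ratios were 4.23 (4.12 to 4.34) and 7.68 (7.42 to 7.94), with 23.7% of genes past 2-fold. The IGH only difference in Igll1 was unequal by cycle transcripts: 2507 against 801 CPM in cells with them and 2707 against 159 CPM in cells without. Vpreb2 was lower in the deleted cells, 279-fold (194 to 418) with no contig and 92.4-fold (51.1 to 186) with IGH only. Vpreb3 stood at ratios of 0.840 (0.830 to 0.851) and 0.859 (0.845 to 0.874). With IGH plus light chain, 19 deleted cells set against 6606 gave ratios of 5.95 (5.19 to 6.80) for Igll1 and 0.463 (0.387 to 0.550) for Vpreb3. In cells without a Kit UMI, Igll1 stood at 80.4 CPM (9.73 to 290) in 9 deleted and 288 CPM (282 to 295) in 6536 control B220lo cells. The deleted value rests on 2 UMIs and its interval includes the control value, so the higher level was not seen there and no direction can be read. Genotype and sort gate differed together here and cannot be told apart. Kit stood at 371 and 390 CPM in the deleted and at 19.1 and 2.68 CPM in the control B220lo cells of these states. When the control B220lo cells were limited to those with a Kit UMI, the no-contig log2 ratios were 0.62 for Igll1, 0.99 for Vpreb1 and -7.08 for Vpreb2, and that of Vpreb3 changed direction to 0.33. With IGH only they were 1.46, 2.33, -5.50 and 0.97, on 19 control B220lo cells. Control B220lo cells with no contig and a Kit UMI, 192 in number, had 1785 CPM (1724 to 1847) of Igll1 and 1382 CPM (1329 to 1437) of Vpreb3, against 931 CPM (915 to 946) and 2149 CPM (2125 to 2173) in those without a Kit UMI. The control B220lo cells with a Kit UMI were also deeper. Their medians were 6000.5 against 2591 UMIs with no contig and 13204 against 3085.5 UMIs with IGH only. The limit to a Kit UMI thus changed depth as well, and the part of depth in these values was not tested. In the deleted library the 1613 no-contig cells without a Kit UMI had 2939 CPM of Igll1 and the 8159 with one had 2708 CPM.

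Summed levels do not tell how many cells carried a transcript, so each cell was also thinned to 1000 UMIs. In deleted B-marker cells 87.6% (86.9 to 88.2) with no contig and 87.7% (86.4 to 88.8) with IGH only then had an Igll1 UMI, and 98.9% and 99.1% had one unthinned. In control B220lo B-marker cells the thinned shares were 27.3% (25.9 to 28.8) with no contig, 17.2% (15.5 to 19.1) with IGH only and 9.39% (8.69 to 10.1) with IGH plus light chain, and 38.3%, 33.7% and 21.5% unthinned. Median depths before thinning were 6347 and 6387 UMIs in the deleted sets and 2645, 3095 and 3039.5 UMIs in the control B220lo sets. Cells that should lack the gene had thinned shares of 4.05% (2.29 to 6.60) among deleted granulocyte-marker cells and 2.18% (1.37 to 3.28) among control B220lo cells with markers of pDCs (plasmacytoid dendritic cells), at medians of 17427.5 and 5740 UMIs. Unthinned, 32.4% and 11.6% of these cells had an Igll1 UMI. Vpreb1 had a UMI in 88.7% and 89.1% of the thinned deleted cells and in 23.1%, 12.5% and 7.43% of the control B220lo cells, against 2.16% of deleted granulocyte-marker and 1.68% of control B220lo pDC-marker cells. Vpreb3 had one in 74.7% and 74.98% of the deleted and in 69.5%, 80.0% and 80.4% of the control B220lo cells, against 6.92% of the pDC-marker cells. Vpreb2 had one in 6.51% (5.74 to 7.35), 2.09% (1.47 to 2.88) and 1.04% (0.814 to 1.32) of control B220lo cells, against 0.0989% of pDC-marker cells, and in 0.0205% and 0.0340% of deleted cells, which is a level near that of 1 UMI.

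The share of cells with both Igll1 and Vpreb1 was lower from state to state in the control B220lo library. It was 17.2%, 6.44% and 2.69% of the thinned cells, against 79.9% and 79.7% in the deleted library. Cells with Vpreb3 but neither of these genes made up 44.6%, 62.7% and 69.4% of control B220lo cells, and 1.55% and 1.39% of deleted cells. At full depth Igll1 was uneven among control B220lo cells with no contig: the median cell had 0 UMIs, while the 561 cells with at least 10 UMIs, 15.03% of the set, held 85.5% of its Igll1 count. Among deleted cells with no contig 75.2% had at least 10 Igll1 UMIs. These 2 shares are not at like depth, since the median was 6347 UMIs in the deleted and 2645 UMIs in the control B220lo cells.

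**Figure D4:**
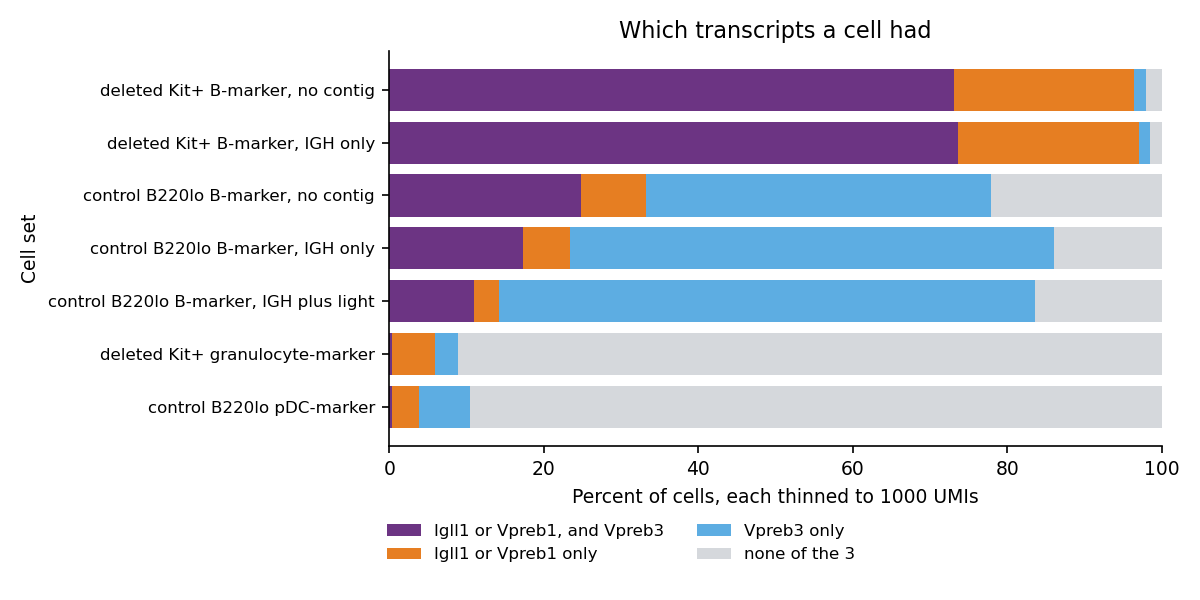
Percent of cells, each thinned to 1000 UMIs, by which of Igll1 or Vpreb1 and Vpreb3 had a UMI, for B-marker cells by contig state and for 2 sets of other cells. Vpreb3 alone was found in 69.4% of control B220lo cells with IGH plus light chain and in 1.39% of deleted cells with IGH only.

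Pre-B cells divide, so levels were compared between cells with and without cycle transcripts, meaning a UMI of at least 3 of 10 cycle genes. The genes were Mki67, Top2a, Cdk1, Ccnb1, Ccna2, Tpx2, Birc5, Ube2c, Cenpf and Plk1. Cells without these transcripts can still be in cycle. In control B220lo B-marker cells with IGH only, Igll1 stood at 801 CPM in the 644 cells with and 159 CPM in the 1079 cells without them, a ratio of 5.04 (4.59 to 5.55). In deleted cells with IGH only it stood at 2507 and 2707 CPM, a ratio of 0.926 (0.912 to 0.941). With no contig the ratio was 1.39 (1.35 to 1.43) in control B220lo and 0.937 (0.929 to 0.945) in deleted cells. Vpreb1 with IGH only had a ratio of 2.91 (2.64 to 3.23) in control B220lo and 0.753 (0.741 to 0.765) in deleted cells. With no contig it was lower with cycle transcripts in both, at 0.927 (0.896 to 0.958) and 0.740 (0.733 to 0.746). Vpreb3 was lower in cells with cycle transcripts in all of these sets, with ratios of 0.517 and 0.523 in deleted and 0.537 and 0.478 in control B220lo cells. Cells with cycle transcripts were deeper, with medians of 8214.5 against 2436 UMIs in control B220lo and 10345 against 4895 UMIs in deleted cells with IGH only. At 1000 UMIs per cell, with 1 cycle UMI as the criterion, mean Igll1 counts with IGH only were 0.364 against 0.164 in control B220lo and 2.73 against 2.71 in deleted cells. These means no longer went opposite ways, and the deleted ones were nearly equal. With no contig they were 0.731 against 0.766 in control B220lo cells, the other way round from the full-depth ratio. The depth, the cycle criterion and the weight of each cell differ between these comparisons, since CPM pools UMIs and the means weight cells alike. Which of them moved the values was not tested.

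**Figure D5:**
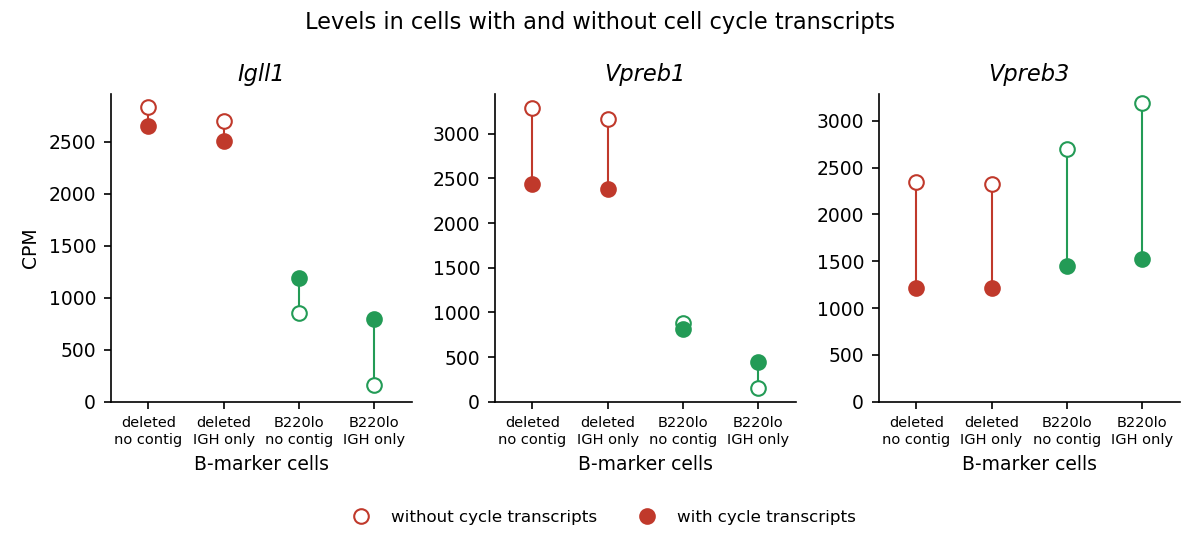
CPM of Igll1, Vpreb1 and Vpreb3 in B-marker cells with cycle transcripts (filled) and without them (open), by library and contig state. Igll1 with IGH only goes from 159 to 801 CPM in the control B220lo library and from 2707 to 2507 CPM in the deleted library.

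Levels were also compared between deleted cells of separate heavy chain origins. A clone here is the set of cells with the same heavy chain rearrangement, and 20 clones had at least 20 B-marker cells, 1979 cells in all. Igll1 ran from 2177 to 3240 CPM over these clones with a median of 2567 CPM, Vpreb1 from 2439 to 3580 CPM and Vpreb3 from 1404 to 2177 CPM. The highest clone was 1.49, 1.47 and 1.55 times the lowest for these genes. Clones of at least 20 cells, clones of 2 to 19 cells and single cells had 2561, 2541 and 2831 CPM of Igll1. In control B220lo cells with IGH and a light chain, the kind of light chain was compared. Igll1 stood at 288 CPM (281 to 295) with kappa, 345 CPM (328 to 362) with lambda and 254 CPM (225 to 285) with both. Vpreb3 stood at 2259 CPM (2241 to 2278), 2049 CPM (2008 to 2091) and 2484 CPM (2393 to 2578). Median depths of these cells were 3103, 2609 and 3444 UMIs.

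A list of 35 other genes of the pre-B cell receptor, its signalling chain and the factors around it was described beside the members. Between the deleted and the control Kit+ library 20 of the 33 list genes with at least 100 UMIs were past 2-fold higher and 3 lower, with a median log2 ratio of 2.26 against -0.0046 for all genes, of which 23.8% were past 2-fold (1886 higher and 1395 lower). This compares all cells, of which 92.7% and 0.434% were B-marker cells, and the list shares genes with the B markers, among them Cd79a, Ebf1, Pax5 and Blnk. Those with the largest log2 ratios, with 1 CPM added, were Cd79a, a signalling chain of the receptor, at 3542 against 3.78 CPM, the factor Ebf1 at 1713 against 1.98 CPM, Blnk, an adaptor of the receptor's signalling, at 848 against 1.46 CPM, and the kinase Zap70 at 368 against 0.143 CPM. Between SI and control Kit+ cells 0 of 27 were higher and 1 lower, the heavy chain gene Ighm at 16.4 against 42.7 CPM, where 3.28% of all genes were past 2-fold, so the count is near the background. Against control B220lo cells with IGH only, 8 of 35 were higher and 14 lower in deleted cells, with a median of -0.60 against -0.022. Of all genes 23.7% were past 2-fold here, 1586 higher and 949 lower. The 8 with the largest log2 ratios were 5 lower and 3 higher ones. Spib, an ETS family factor, stood at 0.392 against 289 CPM, Ikzf3 (Aiolos) at 1.09 against 299 CPM and Irf4 at 7.23 against 228 CPM. The kinase genes Blk, with 2 UMIs in deleted and 2027 in control B220lo cells, and Btk, at 2.53 against 106 CPM, were lower too. Kit stood at 390 against 2.68 CPM, the factor Erg at 510 against 18.0 CPM, and Dntt, which encodes terminal transferase and adds bases at heavy chain joints, at 1347 against 24.6 CPM.

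With no contig 6 of 35 were higher and 18 lower in deleted than in control B220lo cells, with a median of -1.05 against -0.055 and 24.4% of all genes past 2-fold. From no contig to IGH only, 0 of 32 list genes were past 2-fold in the deleted library, where 0.366% of all genes were. In the control B220lo library 3 of 35 were lower and 0 higher, where 4.34% of all genes were past 2-fold (22 higher and 408 lower). These were Dntt, from 404 to 24.6 CPM, the factor Erg, from 212 to 18.0 CPM, and Kit, from 19.1 to 2.68 CPM. From IGH only to IGH plus light chain in that library, 0 of 35 were past 2-fold, against 5.56% of all genes.

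Genes with the most similar profile were named by the correlation of their log2 levels over 6 sets of B-marker cells (deleted with no contig and IGH only, and control B220lo with no contig, IGH only, IGH plus light chain and light chain only). The sets share 2 libraries, so the values are a description. Among 7699 genes those most like Igll1 were Cdk5rap2 (r = 0.999), Gmds (0.999), Itgb1 (0.996), Pde2a (0.996) and Zc3h7b (0.996). Pde2a, a phosphodiesterase of cyclic nucleotides, went from 525 and 527 CPM in the deleted sets to 296, 172, 104 and 151 CPM in the control B220lo sets. Cdk5rap2 went from 65.6 and 63.9 CPM to 49.1, 42.9, 33.9 and 39.4 CPM in the same sets. That is a narrower fold range than that of Igll1, from 2737 to 295 CPM, so a high r does not mean a change of like size. Those most like Vpreb3 were Cuta (0.997), Dnajc14 (0.996), Tmem128 (0.995), Nfkbib (0.994) and Ormdl1 (0.994). Between the members, r was 0.995 for Igll1 with Vpreb1, -0.76 for Igll1 with Vpreb2 and -0.82 for Igll1 with Vpreb3. For Vpreb1 it was -0.77 with Vpreb2 and -0.79 with Vpreb3, and for Vpreb2 with Vpreb3 it was 0.71. The genes next to Igll1 and Vpreb1 were Top3b, Spag6l and Ppm1f. Top3b, a topoisomerase gene whose start overlaps that of Vpreb1 by 108 bases on the opposite strand, had 74.5 CPM after deletion and 68.2 CPM in control Kit+ cells over all cells, Spag6l had 8.23 and 6.16 CPM and Ppm1f 31.0 and 22.4 CPM. In deleted over control B220lo B-marker cells, with no contig and with IGH only, the log2 ratios were 1.07 and 0.98 for Spag6l, 1.02 and 1.27 for Ppm1f and 0.46 and 0.51 for Top3b, against 1.41 and 2.08 for Igll1. Beside Vpreb3, Chchd10, a mitochondrial protein gene 5310 bases away, stood at 1000.3 CPM over all cells of the deleted and 83.3 CPM over all cells of the control Kit+ library, and Gm867 at 16.7 and 0.136 CPM. Gm5134 stood at 8.99 and 1.56 CPM and Zfp280b at 10.5 and 6.84 CPM. In deleted over control B220lo B-marker cells the log2 ratios with no contig and with IGH only were 0.37 and 0.26 for Chchd10 and 2.83 and 3.22 for Gm867. They were 0.29 and 1.52 for Gm5134 and -0.036 and -0.16 for Zfp280b.

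The stretches before the starts of Igll1 and Vpreb3 are shown because their pooled levels differed in course over the contig states of the control B220lo library, though not in the deleted library or within cells of 1 cycle kind at the last step. E2A proteins bind E-boxes (CANNTG), and EBF1 binds sites with the core CCCNNGGG. Both factors are known to act on surrogate light chain genes. In the 250 bases before the RefSeq start (GRCm38), a search of both strands found 3 E-boxes for Igll1, 1 for Vpreb1, 2 for Vpreb2 and 5 for Vpreb3. The Vpreb2 stretch begins 113 bases before its GENCODE start, so the rest of it lies inside the annotated gene and is an unlike region. Of 32851 promoters of that length 66.2% held an E-box and 31.8% held at least 2. The EBF1 core was found 1 time for Igll1 and 0 times for the others, and in 11.8% of all promoters. E-boxes are in capitals, and those of Vpreb3 include a pair that overlaps.
Igll1, chr16:16863986-16864235, minus strand: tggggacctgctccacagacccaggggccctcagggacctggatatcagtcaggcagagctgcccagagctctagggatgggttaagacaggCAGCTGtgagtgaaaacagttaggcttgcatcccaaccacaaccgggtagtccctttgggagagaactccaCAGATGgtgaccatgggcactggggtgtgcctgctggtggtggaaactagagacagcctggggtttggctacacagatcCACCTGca
Vpreb3, chr10:75948050-75948299, plus strand: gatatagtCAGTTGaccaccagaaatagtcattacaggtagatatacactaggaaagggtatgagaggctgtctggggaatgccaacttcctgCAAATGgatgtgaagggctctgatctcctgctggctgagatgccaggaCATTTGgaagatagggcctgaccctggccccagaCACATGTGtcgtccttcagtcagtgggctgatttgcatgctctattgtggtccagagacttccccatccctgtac
A match is a run of letters and says nothing of binding in these cells.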

How the data were processed

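Transcripts of single bone marrow cells were measured in 4 libraries with a 10x 5′ kit, per the labels' protocols. The deposited matrices hold raw UMI counts per gene and barcode, and the authors' contig tables hold read and UMI counts per receptor contig. Cell Ranger 7.1.0 and the build mm10 are named in the submitters' processing notes. Barcodes with at least 1000 UMIs, 500 genes and at most 10% mitochondrial UMIs were kept, and those with a Scrublet score of 0.25 or more (scanpy 1.11.5, expected share 8%) were removed as doublets, 840, 1168, 580 and 949 in the order control Kit+, deleted, SI and control B220lo. Total counts of the kept cells were 139509234, 111312007, 150923616 and 77184735 UMIs. Counts were summed per set of cells. CPM has exact Poisson intervals, shares have exact Clopper-Pearson intervals, and ratios have exact conditional intervals (scipy 1.17.1). Log2 ratios carry 1 CPM. A gene was called past 2-fold if it had at least 100 UMIs in the higher set. A count of 0 allows a level of up to 3 counts. The ratio step was tested on simulated data for deleted over control B220lo cells with IGH only, on 10429 genes, and 100% of 200 changed genes came back within 0.5 log2 units. The members, the pre-B receptor list and the markers were chosen with earlier results of these data known. Genes named were the members, up to 8 list genes past 2-fold per comparison by size of change, the 5 genes most similar to Igll1 and to Vpreb3, and the nearest protein-coding genes. Alternatives covered the cell filter, doublets, contig support, number of B markers, the CPM total, pseudocount, gene minimum, centring, a Kit UMI in control B220lo cells and thinning. No paired analysis was possible because each group has 1 library.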

Additional observations from a re-analysis of the deposited data

Results flagged for a closer look

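In full-depth CPM, the difference between cells with and without cycle transcripts went opposite ways in the deleted and the control B220lo library. This held for Igll1 in both contig states compared, and for Vpreb1 with IGH only. It was not tested, since each group has 1 library. For Igll1 in B-marker cells with no contig the log2 CPM ratio was -0.094 in the deleted and 0.47 in the control B220lo library. With IGH only it was -0.11 and 2.33. For Vpreb1 with IGH only it was -0.41 and 1.54, while with no contig Vpreb1 was lower with cycle transcripts in both libraries, at -0.44 and -0.11. Genotype and sort gate differed together, and cells with cycle transcripts were the deeper ones in both libraries. Each cell was then thinned to 1000 UMIs and weighted alike, with 1 cycle UMI as the criterion, so several choices changed together. The mean Igll1 count in control B220lo cells with no contig was 0.731 with and 0.766 without cycle UMIs, so its direction turned. With IGH only the means were 2.73 and 2.71 in deleted cells, and 0.364 and 0.164 in control B220lo cells. These no longer went opposite ways, and the deleted means were nearly equal. Which of the choices moved these values was not tested.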

How the results depend on the processing

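Of 264 log2 ratios of the members under alternative settings 260 kept their direction, and the other 4 were all of Vpreb3, with values given above. Of 131 that belonged to ratios past 2-fold 127 stayed past 2-fold. Of 352 levels under settings other than the Kit UMI limit, 221 stayed within the main interval and 0 moved by over 1.5 times. Under that limit control B220lo levels did, for Igll1 from 1027 to 1785, Vpreb1 from 848 to 1427 and Vpreb2 from 109 to 187 CPM with no contig, and Igll1 from 614 to 946, Vpreb1 from 357 to 546 and Vpreb3 from 2010 to 880 CPM with IGH only. With IGH plus light chain, on 70 cells, Igll1 went from 295 to 532, Vpreb1 from 198 to 402, Vpreb2 from 22.3 to 45.9 and Vpreb3 from 2235 to 955 CPM. These 70 cells had a median of 10861 UMIs, against 3028 UMIs in control B220lo cells of that state without a Kit UMI. Igll1 values that left the main interval follow, on the log2 scale. With 10 CPM added, Igll1 stood at 7.47 for deleted and -0.29 for SI over control Kit+ cells, and Vpreb2 at -2.37 for deleted over control B220lo cells with IGH only. For deleted over control B220lo cells with no contig, Igll1 stood at 1.47 with all barcodes, 1.31 with at least 2000 UMIs, 1.46 with doublets kept, 1.52 without ribosomal, mitochondrial and immunoglobulin genes in the total, 1.47 centred on the median gene and 0.62 against control B220lo cells with a Kit UMI. With IGH only it stood at 2.03 with at least 2000 UMIs, 2.14 with that reduced total and 1.46 against cells with a Kit UMI. For IGH only over no contig it stood at -0.060 in the deleted library with all barcodes and also with doublets kept. In the control B220lo library it stood at -0.67 with all barcodes, -0.79 with at least 2000 UMIs, -0.68 with doublets kept, -0.69 with the reduced total and -0.62 centred. For IGH plus light chain over IGH only it stood at -1.23 with contigs of at least 2 UMIs. Adding 10 CPM took the count of genes past 2-fold from 3281 to 1326 (deleted over control Kit+), from 434 to 93 (SI over control Kit+), from 3023 to 1527 and from 2535 to 1456 (deleted over control B220lo, no contig and IGH only), from 44 to 19 and from 430 to 117 (IGH only over no contig, deleted and control B220lo) and from 594 to 245 (IGH plus light chain over IGH only). The 44 became 18 with the reduced total, and the 430 became 802 with no minimum of UMIs. The cause of these moves was not tested. Levels of sets with few cells, such as the 20 control Kit+ and 6 SI cells with no contig, have wide intervals. With 1 library per group none could be left out in turn.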

Other observations

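Vpreb1 had a low level in cells outside the B lineage of the control Kit+ and SI libraries that Vpreb2 and Vpreb3 did not share. Over all cells outside the B lineage it stood at 1.67 CPM (1.47 to 1.90) in control Kit+ and 1.61 CPM (1.41 to 1.82) in SI cells. Igll1 stood at 0.905 CPM (0.754 to 1.08) and 0.239 CPM (0.167 to 0.331), Vpreb3 at 0.201 and 0.232 CPM and Vpreb2 at 0.0144 and 0.0796 CPM in the same cells. By marker class of the control Kit+ library, Vpreb1 stood at 0.746 CPM (0.488 to 1.09) in erythroid, 1.83 CPM (103 UMIs) in granulocyte, 1.99 CPM (1.06 to 3.41) in HSPC (stem and progenitor) and 2.52 CPM (1.54 to 3.89) in monocyte-marker cells. Igll1 had 3 and 0 UMIs in the erythroid and HSPC-marker cells, and in monocyte-marker cells stood at 2.39 CPM (1.44 to 3.74). The annotation lists 2 noncoding Vpreb1 transcripts that start at 16870843 on chromosome 16, within the overlap with Top3b, and the counts do not tell transcripts of a gene apart.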
